A study of Mus musculus with 4 samples.

Results

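Transcripts of heat shock proteins and chaperonins were examined in 4 samples of mouse distal colon, each hybridised to 1 Affymetrix expression array. Members were chosen by name: a probe set had to map to exactly 1 gene whose symbol starts with Hspa, Hspb, Hsf, Dnaja, Dnajb, Dnajc or Cct and a digit, or with Hsp90, or is Hspd1, Hspe1, Hsph1 or Tcp1. The rule gave 84 genes out of 18193, and where a gene had several probe sets, the one brightest on average over all 4 arrays stood for it. The groups were untreated wild-type mice (WT), untreated mice deficient in the secreted metalloprotease Adamts12 (KO), and mice of each genotype given 2% dextran sodium sulfate (DSS) in its drinking water, a standard way to injure the lining of the colon. DSS was given for 7 days according to the series text and for 8 days according to the treatment protocol, and ended 1 day before sampling. All mice were 8 to 10 weeks old when treatment began. The sources used here do not name the strain, the sex or the deleted part of Adamts12 or say whether an array holds 1 animal or a pool. Each group is 1 array, so the differences between arrays have no replicate check.

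Chaperones bind polypeptides that are not yet folded, or have lost their fold, and help them reach a native state. Hsp70 proteins work in cycles of ATP hydrolysis that J-domain proteins start and Hsp110 proteins reset; Hsp90 acts later on kinases, receptors and other clients; the CCT ring and the mitochondrial Hsp60 ring enclose a single chain; and small heat shock proteins hold unfolded chains without ATP. Heat shock factor 1 induces many cytosolic members under proteotoxic stress, and the unfolded protein response induces those of the endoplasmic reticulum (ER), which serve secretory cells such as goblet and plasma cells.

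Of the 84 genes, 67 passed the filter on dim probe sets (above the median of all probe sets on at least 1 array), 63 of them on all 4 arrays. The 17 dim members lay between 1.17 and 3.39 on the log2 scale, under the array medians of 3.42 to 3.46, and are not counted further. They were Cct6b, Cct8l1, Dnajb3, Dnajb7, Dnajb8, Dnajb13, Dnajc5b, Dnajc5g, Dnajc6, Dnajc27, Hsf2, Hsf4, Hsf5, Hspa1l, Hspa12b, Hspb3 and Hspb9. All 3 heat shock factor genes among the members were thus dim. Hsf2bp, which encodes a protein that binds heat shock factor 2 and is no such factor itself, passed, at 3.41 to 3.67. Nearest to the filter were Dnajc27, at -0.03 relative to the array median on its best array, and Dnajc28, at 0.21. Hsf1 and Hsp90ab1 were not analysed here.

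The samples are described as distal colon. All 12 epithelial markers passed the filter and 0 of 4 measured erythrocyte markers did, but these lists were not made to tell segments of the gut apart. The Adamts12 probe set used, too dim to pass, read 2.18 for WT with or without DSS, 1.42 for untreated KO and 1.41 for DSS KO (log2). The untreated KO array stood apart in genes of position along the gut: Hoxb13, a homeobox gene of the hindgut, was at 2.48 there and between 7.84 and 9.47 on the other arrays, and Fabp2, a lipid-binding protein of the proximal gut, at 10.62 against 4.51 to 8.07. Each DSS difference in KO, and each KO minus WT difference without DSS, rests on the untreated KO array. The WT arrays also differed in such genes. Hoxd13 was at 8.82 in untreated WT and 4.22 in DSS WT, and Hoxd10 at 5.82 and 2.37. On the KO arrays Hoxd13 was at 3.36 untreated and 7.20 with DSS, and Hoxd10 at 4.30 and 3.61. In whole tissue, fewer cells of a type and less RNA per cell cannot be told apart.

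With DSS, members were higher more often than lower in both genotypes. At least 2-fold higher were 11 of the 67 members in WT (5.82% of all 12176 genes that passed were) and 12 in KO (10.7% of all genes). At least 2-fold lower were 3 in WT (Dnajb5, Dnajc12 and Hspb11, against 4.94% of all genes) and 0 in KO (6.67%). The median log2 difference of the members was 0.23 in WT and 0.31 in KO, beside -0.01 and 0.06 over all genes. Above 0 were 44 members in WT (48.5% of all genes) and 50 in KO (53.6%). The members at least 2-fold higher in both genotypes were Cct8, Dnajc2, Hsp90aa1, Hspa14, Hspd1 and Hspe1, which is 6 of 67, or 8.96%, where 2.48% of all genes were, and 0 were at least 2-fold lower in both (1.32% of all genes). These 6 encode a subunit of the CCT ring, the pair of ribosome-bound folding partners Hspa14 and Dnajc2, the inducible cytosolic Hsp90, and both components of the mitochondrial chaperonin. Their number was 2 when all probe sets of a gene were averaged and 2 after quantile normalization. For 32 members both DSS arrays lay above both untreated arrays (26.4% of all genes), and for 5 (Dnajb12, Dnajb14, Dnajc4, Dnajc28 and Hspb11) both lay below (22% of all genes). Of the 32, 23 had other probe sets that passed the filter, and of those 45 probe sets 29 also had both DSS arrays above both untreated ones. Over all members with such probe sets, 68 of 88 had the sign of the probe set used for the DSS difference in WT, 67 of 88 in KO, 63 of 85 for KO minus WT without DSS and 60 of 88 with DSS.

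**Figure D1:**
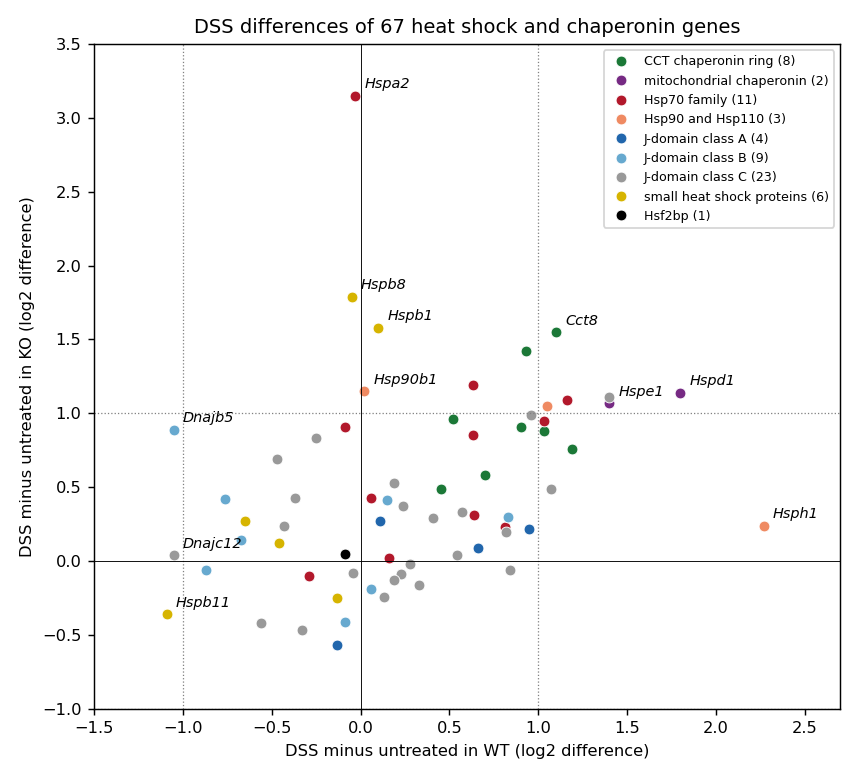
Log2 difference between the DSS and the untreated array in WT (x axis) and in KO (y axis), 1 point for each of the 67 members that passed the filter, coloured by class with the number of genes in brackets; dotted lines mark 2-fold. All 8 points of the CCT ring lie above 0 on both axes, Hsph1 lies far out on the WT axis (2.27) and Hspa2 on the KO axis (3.15).

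Both factors were tested over the 4 arrays with limma in an additive model of treatment and genotype, with 1 residual degree of freedom, in which a DSS effect that differs between the genotypes counts as error. For DSS, 0 members and 0 of all genes passed a Benjamini-Hochberg adjusted p of 0.05 over all genes. At an unadjusted p under 0.05, 16 members were higher (7.64% of all genes) and 0 lower (4.18% of all genes). The 16 were Hspd1, Hspe1, Cct8, Dnajc2, Hsp90aa1, Hspa14, Cct6a, Hspa9, Cct3, Dnajc9, Tcp1, Cct7, Hspa5, Hspa4, Cct2 and Cct5. Of these, 7 belong to the ring. Hspd1 had the lowest p of the members, with a difference of 1.47 (SE 0.27, higher in both genotypes, adjusted p = 0.364), and ranked 191 among all genes. No single difference given here passed limma's adjusted test.

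The cytosolic chaperonin CCT, also called TRiC, is a double ring whose subunits are products of separate genes and which folds actin, tubulin and other chains. All 8 of its subunits that passed the filter (Tcp1, Cct2, Cct3, Cct4, Cct5, Cct6a, Cct7 and Cct8) were higher on both DSS arrays than on both untreated arrays (26.4% of all genes). Their differences spanned 0.45 to 1.19 in WT and 0.49 to 1.55 in KO, with medians of 0.915 and 0.895. Cct6b, a subunit of the testis, and Cct8l1 were dim.

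Tcp1, the alpha subunit, had log2 values of 8.88 in untreated WT, 8.83 in untreated KO, 9.78 in DSS WT and 9.74 in DSS KO. Cct8, the theta subunit, had 7.97, 7.48, 9.07 and 9.03 in the same order, with the highest DSS difference of the ring in KO, 1.55. Cct3 was at 8.65 and 8.66 without DSS and at 9.68 and 9.54 with it. In each case the pair of untreated arrays and the pair of DSS arrays lay closer together than the treatments lay apart. Cct5 was at 8.92 and 9.06 untreated and 9.62 and 9.64 with DSS, and Cct2 at 9.19 and 8.82 untreated and 9.71 and 9.78 with DSS. Between the genotypes the ring was under 2-fold apart by the probe sets used. The KO minus WT differences ran from -0.49 (Cct8) to 0.21 (Cct7) without DSS and from -0.22 (Cct7) to 0.08 (Cct6a) with DSS. Without DSS the other probe sets that passed gave -0.89 to -0.17 for Cct2 and -0.77 to -0.15 for Cct4. They gave -0.09 to 0.57 for Cct3, 0.06 for Cct6a and 0.03 for Cct7. Cct6a, the zeta subunit, was at 8.71 and 8.30 untreated and 9.64 and 9.72 with DSS, and Cct7, the eta subunit, at 8.25 and 8.46 untreated and 9.44 and 9.22 with DSS. In limma's additive model the lowest adjusted p of the ring was 0.364, shared by Cct8, Cct6a, Cct3 and Tcp1, and the highest 0.506, for Cct4.

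Prefoldin, which delivers chains to the ring, and other cofactors of CCT and tubulin folding were measured through 14 genes, none of which was at least 2-fold apart with DSS in either genotype. Their medians were 0.03 in WT and 0.445 in KO. Pfdn4 was higher by 0.90 and 0.91, Pfdn6 by 0.92 and 0.47 and Pfdn1 by 0.53 and 0.62. Markers of proliferating cells moved with the ring: 9 of 9 measured lay higher on both DSS arrays than on both untreated ones (26.4% of all genes). The summed linear level of these markers was 1344 in untreated WT, 1397 in untreated KO, 3739 in DSS WT and 3375 in DSS KO. Their part in the result was not tested.

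**Figure D2:**
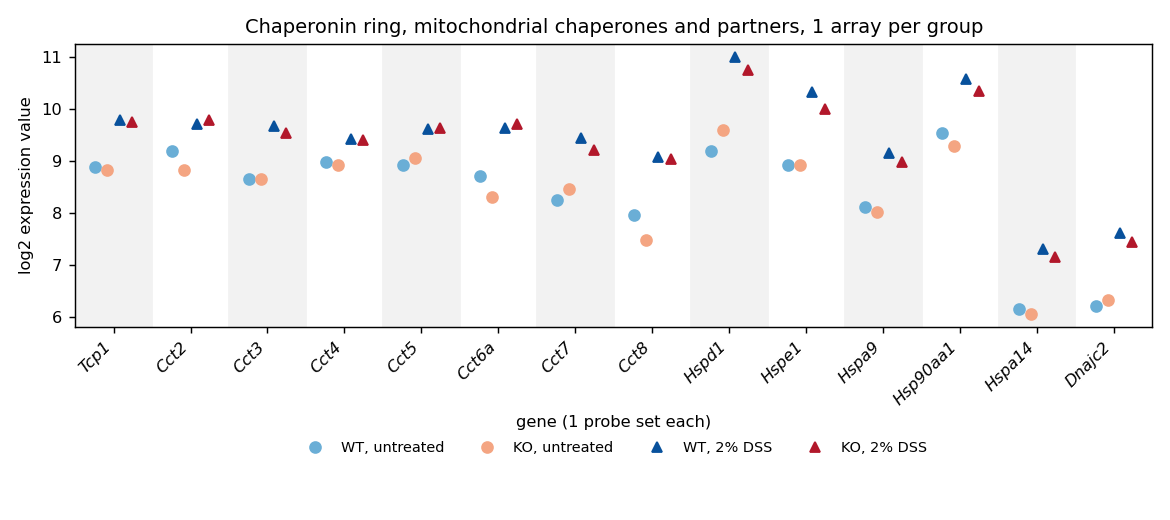
Log2 expression values of the CCT ring, the mitochondrial chaperones Hspd1, Hspe1 and Hspa9, and Hsp90aa1, Hspa14 and Dnajc2, with 1 point per array (circles untreated, triangles 2% DSS; light and dark blue WT, orange and red KO). For every gene drawn both triangles lie above both circles.

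Hspd1 (Hsp60) and Hspe1 (Hsp10) form the folding chamber of mitochondria, the barrel and its lid. Hspd1 had log2 values of 9.20 in untreated WT, 9.60 in untreated KO, 11.00 in DSS WT and 10.74 in DSS KO. Hspe1 had 8.93 on both untreated arrays, 10.33 in DSS WT and 10.00 in DSS KO. DSS differences were thus 1.80 and 1.14 for Hspd1 and 1.40 and 1.07 for Hspe1 in WT and KO. The other probe set of Hspe1 that passed the filter gave 1.63 and 0.79, so its call in KO depends on the probe set used.

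These genes lie head to head, and RefSeq (GRCm38.p6) lists start sites 216 bases apart. The promoter windows of RefSeq, from 250 bases before a start to 50 after it, were matched to 69 of the members by gene number. They were searched on both strands for a heat shock element of 3 alternating units, GAANNTTCNNGAA or TTCNNGAANNTTC, which are each other's complement. A match was found for 4 members (5.8% of the 69, against 0.662% of 27025 genes): Hspd1, Hspe1, Hsph1 and Dnajb6. The stretches, with the element in capitals, are shown because in WT 3 of these 4 genes passed 2-fold in the upward direction with DSS (5.82% of all genes). In KO, Hspd1 and Hspe1 passed it (10.7% of all genes), while Hsph1 (0.24) and Dnajb6 (0.41) did not. The matches of Hspe1 and Hspd1 are the same bases, 2 overlapping elements read from opposite strands, so only the Hspe1 strand is printed (chr1:55088019-55088116, plus strand); the Hsph1 stretch is on the minus strand of chr5:149636266-149636340 and the Dnajb6 stretch on the plus strand of chr5:29735812-29735904.
Hspe1: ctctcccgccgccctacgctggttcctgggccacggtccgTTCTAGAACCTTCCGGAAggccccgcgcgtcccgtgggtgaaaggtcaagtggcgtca
Hsph1: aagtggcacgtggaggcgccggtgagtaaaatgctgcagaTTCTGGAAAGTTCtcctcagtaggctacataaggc
Dnajb6: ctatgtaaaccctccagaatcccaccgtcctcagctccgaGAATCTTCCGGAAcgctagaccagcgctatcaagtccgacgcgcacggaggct

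Counted from the start as 0, the elements span bases -89 to -72 at Hspe1, and the match at Hsph1 begins after the start, at base 15 or base 36 depending on which of 2 listed starts is taken. The same element stands near Dnajb6, whose log2 values were close together at 8.43 and 8.36 untreated and 8.58 and 8.77 with DSS, so members with a match did not share a size of difference. Of the other members that passed 2-fold upward with DSS in WT, Hsp90aa1, Hspa9, Dnajc2 and Dnajc11 had no window to search. Cct3, Cct7, Cct8 and Hspa14 passed 2-fold too and had windows without a match. The windows of the inducible genes Hspa1a, Hspa1b and Dnajb1 held no match either. A match is a stretch of letters, not a measured binding site.

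**Figure D3:**
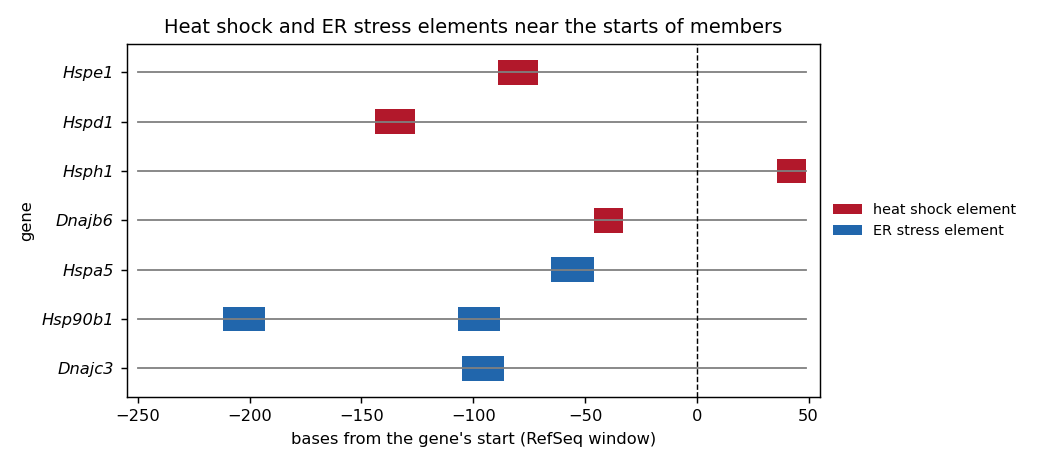
Position of heat shock elements (red) and ER stress elements (blue) in the RefSeq promoter windows of 7 members, in bases from the listed start at 0 (1 listed start per gene; grey lines span the window). The Hspe1 and Hspd1 matches are one place seen from both genes, and Hsp90b1 holds 2 ER stress elements.

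Other mitochondrial members were less uniform. Hspa9 (mortalin), the Hsp70 that pulls chains through the inner membrane, was at 8.12 and 8.03 on the untreated WT and KO arrays and at 9.15 and 8.98 on the DSS arrays. Its differences were 1.03 and 0.95, and its 3 other probe sets that passed gave 0.53 to 1.5 in WT and 0.06 to 1.12 in KO. Dnaja3 (Tid1), its J-domain partner, was at 6.88, 7.12, 7.54 and 7.21 in the order untreated WT, untreated KO, DSS WT and DSS KO, and its other probe set gave -0.65 with DSS in KO. Dnajc11, a J-domain protein tied to the cristae, was at 5.65, 5.98, 6.72 and 6.47, a DSS difference of 1.07 (WT) and 0.49 (KO), where its other probe set gave 0.60 and -0.25. Dnajc15 differed by 0.54 and 0.04, Dnajc30 by 0.13 and -0.24, and both DSS arrays lay lowest for Dnajc4 (6.38 and 6.40 untreated, 6.05 and 5.93 with DSS) and Dnajc28 (3.64 and 3.37 untreated, 3.08 and 2.95 with DSS). With DSS, all 9 mitochondrial members that passed lay lower in KO than in WT, with differences of -0.33 to -0.05, as did 39 of all 67 members (52.6% of all genes).

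In the wider list of mitochondrial import and proteolysis genes, 2 of 19 passed 2-fold upward with DSS in WT (5.82% of all genes) and 1 did in KO (10.7%), with medians of 0.42 and 0.17. Tomm40, the channel of the outer membrane, gave DSS differences of 1.94 (WT) and 0.35 (KO), the protease gene Htra2 differed by 1.13 and -0.22, and Tomm20, a receptor of that channel, by 0.36 and 1.06. Timm17a, of the inner membrane channel, was higher by 0.90 and 0.65, and the receptor gene Tomm70a by 0.62 and 0.91.

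Among cytosolic chaperones, Hsp90aa1, the stress-inducible Hsp90, was at 9.53 in untreated WT, 9.29 in untreated KO, 10.58 in DSS WT and 10.34 in DSS KO. Its DSS difference was 1.05 in both genotypes (limma SE 0.21, adjusted p = 0.364), and 2 further probe sets gave 1.43 and 1.49 in WT and 0.77 and 1.04 in KO. Hspa14 and Dnajc2, which sit together at the ribosome and receive chains as they emerge, differed in parallel. Hspa14 was at 6.16 and 6.07 untreated and 7.32 and 7.16 with DSS, and Dnajc2 at 6.22 and 6.34 untreated and 7.62 and 7.45 with DSS. Dnajc9, which also handles histones, was higher by 0.96 and 0.99. One of the other Hspa14 probe sets went the opposite way in KO, at -0.29.

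The constitutive Hsp70, Hspa8, was at 11.05 in untreated WT, 11.27 in untreated KO, 11.69 in DSS WT and 11.58 in DSS KO, higher with DSS by 0.64 and 0.31; its 3 other probe sets gave 0.28 to 1.48 in WT and -0.61 to 0.90 in KO. Hspa4, an Hsp110-type exchange factor, was at 7.89 and 7.44 untreated and 8.52 and 8.63 with DSS; of its other probe sets in KO, only 1 of 3 gave a difference above 0. Dnaja1, a partner of Hspa8, was at 8.95, 9.47, 9.90 and 9.69 in the order untreated WT, untreated KO, DSS WT and DSS KO, and 1 of its 2 other probe sets gave -0.16 with DSS in WT. Dnajb1 (Hsp40), the classical inducible J-domain protein, was at 8.02, 8.09, 8.25 and 8.00, with DSS differences of 0.23 and -0.09. Its other probe set was at 7.30, 7.82, 7.99 and 7.63, with differences of 0.69 and -0.19.

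The inducible Hsp70 genes Hspa1a and Hspa1b were under 2-fold apart with DSS in both genotypes. Hspa1a had 6.53 in untreated WT, 7.27 in untreated KO, 6.24 in DSS WT and 7.17 in DSS KO, and Hspa1b had 9.25, 9.53, 9.31 and 9.96 in that order. For both genes the KO arrays lay above the WT arrays, by 0.74 and 0.93 for Hspa1a and by 0.28 and 0.65 for Hspa1b without and with DSS, while the DSS differences were -0.29 and -0.10 and 0.06 and 0.43. Their coding sequences are nearly identical, so the probe sets may not separate them. In all, 5 members had both KO arrays above both WT arrays (Dnaja4, Dnajc17, Dnajc18, Hspa1a and Hspa1b; 8.9% of all genes) and 5 both below (Dnajc3, Hsf2bp, Hsp90b1, Hspa4l and Hspb7; 8.75%). For Hspb7 this held for the probe set used, while both others were higher in KO with DSS, by 0.50 and 0.67.

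Hsph1 (Hsp105), the Hsp110 that exchanges nucleotide on Hsp70, had the highest DSS difference of any member in WT, and a difference below the members' median in KO. It was at 7.02 in untreated WT, 8.27 in untreated KO, 9.29 in DSS WT and 8.51 in DSS KO. The untreated WT array was thus the low one, with the untreated KO array near the DSS KO array. The DSS difference was 2.27 in WT and 0.24 in KO, and KO minus WT was 1.25 without DSS and -0.78 with it. Its other probe set gave 2.45 in WT, -0.06 in KO and 1.56 for KO minus WT without DSS. Set against the untreated WT array, a baseline chosen after the data were seen, the DSS KO array was higher by 1.49. Hspa4l, a relative of Hsph1, was at 6.42, 6.07, 7.23 and 6.30 in that order, high on the DSS WT array only.

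Co-chaperones of Hsp70 and Hsp90 were higher with DSS in most cases. Of 20 measured, 16 lay higher on both DSS arrays than on both untreated ones (26.4% of all genes), with medians of 0.50 in WT and 0.255 in KO. At least 2-fold higher were 4 in WT (5.82% of all genes) and 0 in KO (10.7%). Stip1, which hands clients from Hsp70 to Hsp90, differed with DSS by 1.40 (WT) and 0.39 (KO), the Hsp90 activator Ahsa1 by 1.25 and 0.57, the immunophilin Fkbp4 by 1.33 and 0.16, and Hspbp1 by 1.23 and 0.34. Without DSS, KO minus WT was 0.57 for Stip1, 0.26 for Ahsa1, 0.56 for Fkbp4 and 0.46 for Hspbp1. The DSS difference in KO and the KO minus WT difference without DSS share the untreated KO array.

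**Figure D4:**
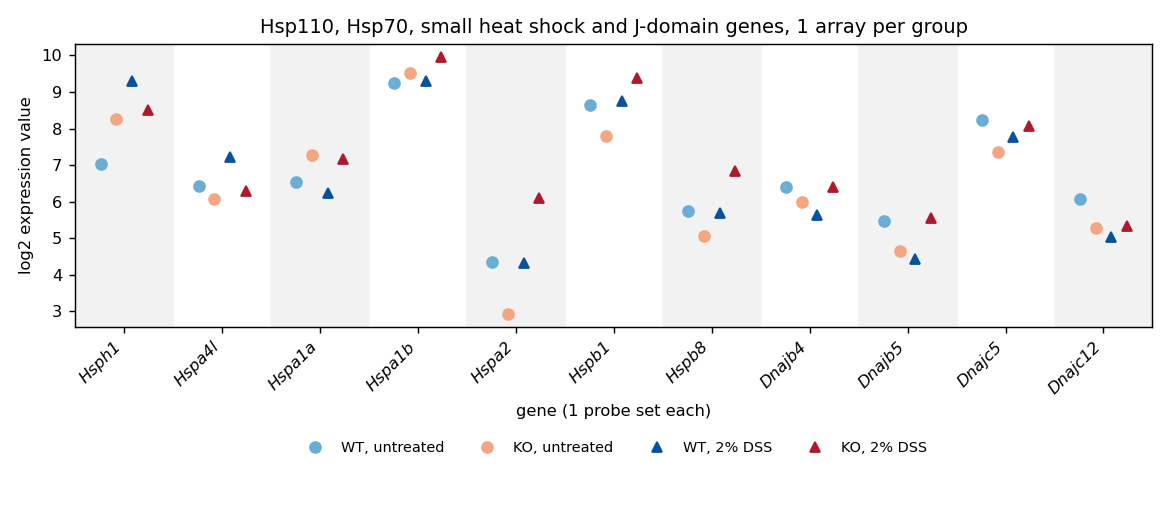
Log2 expression values of 11 Hsp110, Hsp70, small heat shock and J-domain genes, with 1 point per array (circles untreated, triangles 2% DSS; light and dark blue WT, orange and red KO). Hsph1 is lowest on the untreated WT array (7.02), and Hspa2, Hspb1 and Hspb8 are lowest on the untreated KO array and highest on the DSS KO array.

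Hspa2, an Hsp70 best known from the testis, had the highest DSS difference of any member in KO, 3.15, and the lowest KO minus WT difference without DSS, -1.41. It was at 4.35 in untreated WT, 2.94 in untreated KO, 4.32 in DSS WT and 6.09 in DSS KO. The WT arrays were level, and the KO arrays lay on either side of them. The gene has 1 probe set. Relative to the untreated WT array the DSS KO array was higher by 1.74.

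Among small heat shock proteins, Hspb1 and Hspb8 passed 2-fold upward with DSS, both in KO (10.7% of all genes) and not in WT (5.82%). The other 4 that passed the filter did not in either genotype. Hspb1 (Hsp27), a chaperone of the actin skeleton and of stressed epithelium, was at 8.65 in untreated WT, 7.79 in untreated KO, 8.75 in DSS WT and 9.37 in DSS KO, and its other probe set gave a DSS difference of 1.65 in KO beside 1.58. Against the untreated WT array the difference fell under 2-fold, at 0.72. Hspb8, which with Bag3 directs proteins to autophagy, was at 5.74, 5.06, 5.69 and 6.85 in that order. Its differences were -0.05 in WT and 1.79 in KO, with 0.94 and 1.27 from its other probe sets in KO. Without DSS, all 6 small heat shock genes that passed were lower in KO, with a median of -0.63, beside 50.7% of all genes below 0 with a median of -0.01, and 36 of all 67 members. Hspb6 and Hspb7, of smooth and striated muscle, were at 6.45 and 4.85 in untreated WT, 5.56 and 4.68 in untreated KO, 5.80 and 4.72 in DSS WT, and 5.83 and 4.43 in DSS KO. The other probe sets of Hspb7 gave DSS differences of 0.97 and 0.98 in KO, where the one used gave -0.25. Hspb11, named as a small heat shock protein but a part of the ciliary transport complex, was at 6.21 and 5.63 untreated and 5.12 and 5.27 with DSS, with differences of -1.09 in WT and -0.36 in KO.

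Marker sums of other cell types moved with these genes. All 12 smooth muscle markers passed, with a summed linear level of 10502 in untreated WT, 5757 in untreated KO, 6893 in DSS WT and 7835 in DSS KO. Their sum, like Hspb1, Hspb6 and Hspb8, was thus lowest on the untreated KO array. Not every marker was: Lmod1, Synpo2, Myl9 and Mylk were lowest on the DSS WT array, and Actg2 and Casq2 on the DSS KO array. Of 10 skeletal muscle markers, 3 passed, and their list summed to 96.3 to 138. All 10 fibroblast markers passed, with sums of 2890, 2317, 2107 and 4310, and 8 of 9 leukocyte markers, with sums of 1126, 923, 879 and 2254, both highest on the DSS KO array, as Hspa2, Hspb1 and Hspb8 were. Neuron and glia markers, of which 8 of 8 measured passed, had sums of 141, 99.7, 145 and 235. Their sum, like these 3 genes, was lowest on the untreated KO array and highest on the DSS KO array. Of the 8, 5 passed 2-fold upward with DSS in KO (10.7% of all genes). The glial markers were not lowest on the untreated KO array. Gfap and S100b were lowest in untreated WT (2.83 and 2.65), and Sox10 was highest in untreated KO (4.69). The part of these cell types in the result was not tested.

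Of the members of the ER, 7 were lower in KO than in WT without DSS (50.7% of all genes), 2 were equal and 4 were higher. At least 2-fold lower were 2 of the 7, Hsp90b1 and Dnajc3 (5.96% of all genes). All 13 passed the filter, with a median KO minus WT difference of -0.55 without DSS and -0.10 with it, beside -0.01 and -0.02 over all genes. Hsp90b1 (Grp94), the Hsp90 of the ER, was at 9.89 in untreated WT, 8.66 in untreated KO, 9.91 in DSS WT and 9.81 in DSS KO. By this probe set the untreated KO value stood alone, and the other 3 lay within 0.10. The other Hsp90b1 probe set that passed was at 8.67, 7.83, 9.12 and 8.52 in the same order. Hspa5 (BiP), an Hsp70 of the ER that the unfolded protein response induces, was at 10.49, 9.94, 11.12 and 10.79 in that order. It was higher with DSS by 0.63 and 0.85 (limma SE 0.20, adjusted p = 0.388). Of its other probe sets, 1 gave DSS differences of 0.57 in WT and 1.22 in KO, and another 0.22 and -0.47.

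The other ER members fell into a few patterns. Hspa13, an Hsp70 of microsomes, was at 7.23 in untreated WT, 6.26 in untreated KO, 7.14 in DSS WT and 7.17 in DSS KO, like Hsp90b1. Dnajc3 (p58IPK), which restrains the stress kinase PERK, was at 8.08, 6.96, 7.71 and 7.39 and Dnajb9 (ERdj4), a repressor of the sensor IRE1, at 8.56, 7.84, 7.89 and 7.98, both brightest in untreated WT. Dnajb11 (ERdj3), a BiP partner that binds new chains, was level at 8.02 on both untreated arrays and at 8.85 and 8.32 with DSS, and Dnajc10 (ERdj5), which reduces disulfides, stayed between 7.83 and 8.15. Dnajc1 (ERdj1), of the ER membrane, was at 6.28, 5.44, 6.03 and 6.27, lowest in untreated KO like Hspa13, while its 4 other probe sets gave -0.34 to 0.20 for KO minus WT without DSS. For Hsp90b1 the DSS difference in KO was 1.15 and turned to -0.08 when the untreated WT array was the baseline. Its other probe set gave a DSS difference of 0.69 in KO, under 2-fold. All 4 other probe sets of Dnajc3 that passed were lower in untreated KO than in untreated WT, with differences of -0.85 to -0.14.

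The ER stress element, a CCAAT box followed by 9 bases of any kind and CCACG (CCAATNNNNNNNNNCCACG), was searched in the same windows. It was found for Hspa5, Hsp90b1 and Dnajc3, 4.35% of the 69 members with a window, against 0.137% of 27025 genes. The stretches are printed because these 3 genes, with a shared element, were all lower in KO than in WT without DSS by the probe set used, with differences of -0.55, -1.23 and -1.12. The other probe sets gave -0.96 and 0.59 for Hspa5 and -0.84 for Hsp90b1. Some ER members whose windows held no match were also lower, Dnajb14 and Dnajc1 each at -0.84 and Dnajb9 at -0.72. Of the others without a match, Dnajb11 and Dnajc10 were equal, and Dnajb12, Dnajc16 and Dnajc25 were higher. The elements are in capitals, on chr2:34771985-34772083 (plus strand) for Hspa5, chr14:118937787-118937885 (plus strand) for Dnajc3 and chr10:86705493-86705694 (minus strand) for Hsp90b1, which holds 2, the second in the reverse direction. Plain CCAAT boxes stood in the windows of 44.9% of the members and 41.1% of all genes, and TATAAA in those of 4.35% and 15.7%.
Hspa5: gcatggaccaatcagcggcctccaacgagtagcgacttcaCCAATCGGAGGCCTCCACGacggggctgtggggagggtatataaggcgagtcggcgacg
Dnajc3: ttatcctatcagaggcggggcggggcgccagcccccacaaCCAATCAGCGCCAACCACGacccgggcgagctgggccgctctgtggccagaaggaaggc
Hsp90b1: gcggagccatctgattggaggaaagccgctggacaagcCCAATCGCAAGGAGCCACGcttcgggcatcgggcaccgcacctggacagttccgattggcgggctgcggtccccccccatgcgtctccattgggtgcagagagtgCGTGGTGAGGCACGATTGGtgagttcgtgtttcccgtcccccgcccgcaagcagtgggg

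**Figure D5:**
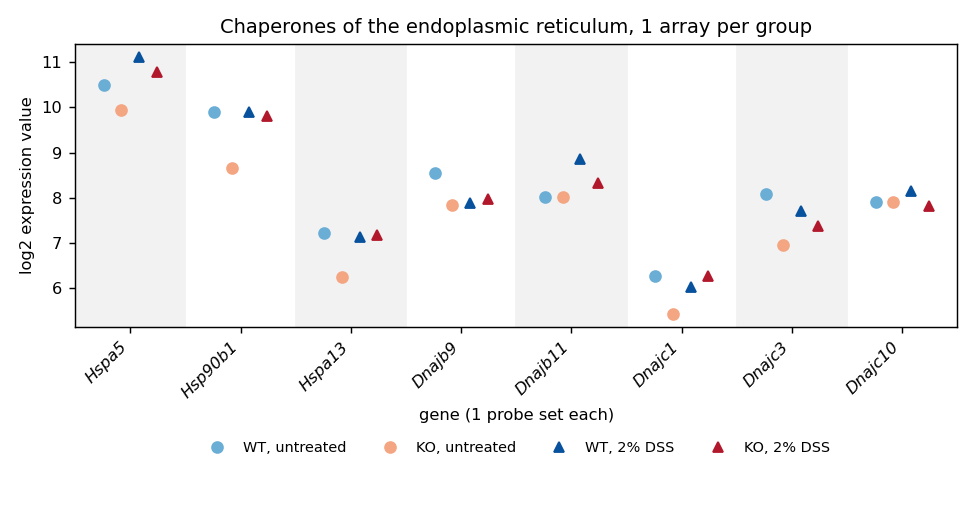
Log2 expression values of 8 chaperones of the endoplasmic reticulum, with 1 point per array (circles untreated, triangles 2% DSS; light and dark blue WT, orange and red KO). Hspa5, Hsp90b1, Hspa13, Dnajb9, Dnajc1 and Dnajc3 are lowest on the untreated KO array.

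Of 30 other genes of ER folding and the unfolded protein response, 0 were at least 2-fold higher in KO without DSS (3.42% of all genes) and 2 were lower (5.96%), with a median of -0.30. These were Derl1 (-1.23), of the channel that removes misfolded proteins, and Chac1 (-1.02). Xbp1, the transcription factor spliced by IRE1, was at 10.32 in untreated WT, 9.41 in untreated KO, 9.87 in DSS WT and 9.93 in DSS KO, and Herpud1 at 9.41, 8.42, 8.54 and 8.66. With DSS, the lowest KO minus WT differences of the list were those of Agr2 (-1.37) and Ern2 (-1.27), which serve mucus-producing goblet cells. Creld2, an ER stress-induced gene, differed with DSS by 0.75 in WT and 1.09 in KO. Plasma cell markers, all 9 measured past the filter, summed to 4717 in untreated WT, 2591 in untreated KO, 2553 in DSS WT and 3601 in DSS KO. Xbp1 and Derl3 are in both the plasma cell list and the list of ER folding genes, so the lists are not independent. Sdc1, unlike the other plasma cell markers, was higher in untreated KO than in untreated WT, at 8.86 and 8.33. The part of plasma cells in the ER differences was not tested.

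The remaining J-domain genes gave few differences past 2-fold. Of 23 class C genes that passed, 15 were above 0 with DSS in WT (48.5% of all genes) and 14 in KO (53.6%). Dnajc12 was at 6.08 in untreated WT and between 5.03 and 5.33 on the other arrays. Dnajc5 (cysteine string protein), of secretory vesicles, was at 8.23, 7.37, 7.76 and 8.06 in the order untreated WT, untreated KO, DSS WT and DSS KO. Dnajc18 was lowest in untreated WT, at 3.02, and at 3.70, 3.59 and 4.03 on the other arrays. Dnajc22 and Dnajc24 were highest on the DSS WT array, at 7.08 and 4.55, with the other arrays at 6.24 to 6.62 and at 3.73 to 4.11. In class B, Dnajb4, a muscle and endothelial Hsp40, was at 6.40, 5.99, 5.64 and 6.41, and Dnajb14, of the ER membrane, at 5.76 in untreated WT and 4.86 to 4.92 elsewhere. Dnajb5 was at 5.48, 4.66, 4.43 and 5.55, but its other 2 probe sets that passed differed by -0.01 and 0 with DSS in WT, so these values hold for 1 probe set. Dnajb12 was at 5.28, 5.55, 5.19 and 5.14 and Dnaja4 was at 3.58, 4.16, 3.45 and 3.59, both highest in untreated KO. Further members kept to a narrow range over the arrays: Dnaja2 lay between 9.27 and 9.54, Dnajb2 between 5.58 and 5.77, Dnajc17 between 5.63 and 5.77, Dnajc16 between 4.46 and 4.68, Dnajc25 between 3.49 and 3.77, Dnajc13 between 6.6 and 6.93 and Hspa12a between 3.91 and 4.08. Dnajc7, a partner of Hsp70 and Hsp90, was higher on both DSS arrays, at 7.67 and 7.63 untreated and 7.91 and 8.00 with DSS, as was Dnajc8, a splicing factor, at 8.74 and 8.90 untreated and 9.15 and 9.19 with DSS.

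Between the genotypes, members at least 2-fold apart were few. Without DSS, 1 was higher in KO (Hsph1; 3.42% of all genes) and 3 were lower (Dnajc3, Hsp90b1 and Hspa2; 5.96%). With DSS, 3 were higher (Dnajb5, Hspa2 and Hspb8; 4.18%) and 0 lower (1.21%). No member was at least 2-fold apart in the same direction in both treatments (0.197% of all genes were higher and 0.238% lower). In limma's additive model 0 members and 0 genes passed an adjusted p of 0.05 for genotype. At an unadjusted p under 0.05, 1 member, Hspa1a, was higher (0.673% of all genes) and 0 were lower (0.772%). The DSS difference was at least 2-fold higher in KO than in WT for 10 members (12.3% of all genes) and lower for 1, Hsph1 (5.91%). For 8 of the 10 the DSS difference was below 0 in WT and above 0 in KO (9.35% of all genes). Some of these values were close to 0, such as -0.03 in WT for Hspa2.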

How the data were processed

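Distal colon RNA on 4 arrays, 1 per group, was compared using the table of expression values the authors deposited, with 45101 probe sets and values of 0.16 to 13.23. They were taken as log2 intensities: 2 to the power of the highest value is within the 16-bit range of a scanner and e to that power is not. How the authors summarised and normalized these log2 values was not given in the sources used here, and background, depth and scan batches could not be assessed. The platform annotation gave 1 symbol for 34945 probe sets, several for 932 and none for 9160, and 64 were controls. A gene was kept when its brightest probe set exceeded its array's median on at least 1 array.

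With 1 array per group, differences between arrays of log2 values were given as sizes, with 2-fold as threshold. limma (version 3.58.1, R 4.3.3) was fitted over all 12176 genes with treatment and genotype as additive terms and an intensity trend, with Benjamini-Hochberg adjustment; the script was tested on simulated data. Its p-values rest on a single residual degree of freedom, the interaction of treatment and genotype. Promoters came from RefSeq, build GRCm38.p6.

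The members and the gene lists were chosen with earlier results of these data known. Values on each array were given for core members of each class, for members at least 2-fold apart in both genotypes or treatments and for the 5 highest and 5 lowest of each comparison. From other lists, genes 2-fold apart in both genotypes were named, or else the 3 with the largest mean DSS difference; Xbp1, Herpud1 and genes in small counts of calls were named after their values were seen. Alternatives were quantile normalization, median centring, other filters, the mean over probe sets, the removal of probe sets with possible matches in several genes, a 1.5-fold threshold, limma without the covariate or trend and, chosen after seeing the data, the untreated WT array as baseline of the DSS KO array.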

Additional observations from a re-analysis of the deposited data

Results flagged for a closer look

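For 8 of the 67 members (11.9%, against 9.35% of all genes) the DSS difference had opposite signs in the genotypes, lower with DSS in WT and higher in KO, and its value in KO minus that in WT was at least 1 on the log2 scale. With 1 array per group the difference was not tested, and each value rests on the untreated KO array, which stood apart in genes of position along the gut. Some of the signs rested on values near 0: in WT -0.03 for Hspa2, -0.05 for Hspb8 and -0.09 for Hspa13, and in KO 0.04 for Dnajc12. The other probe sets in WT gave -0.27 and 0.19 for Hspb8 and -0.05 and 0.43 for Hspa13. The Hsp70 gene Hspa2 was furthest apart, at 3.18. Dnajb5 followed at 1.94, from the 1 of its 3 probe sets that showed it, and the small heat shock gene Hspb8 at 1.84, with 0.75 and 1.54 from its other probe sets. The J-domain genes Dnajb4, Dnajc5, Dnajc12 and Dnajc1 differed by 1.18, 1.16, 1.09 and 1.08, and the ER Hsp70 gene Hspa13 by 1.00. Their other probe sets gave -0.24 and 0.79 for Dnajb4, 0.33 to 1.02 for Dnajc5, -0.18 to 0.38 for Dnajc1, and 0.11 and 0.56 for Hspa13. With the mean over probe sets Dnajb4 was at 0.58 and Hspa13 at 0.42.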

How the results depend on the processing

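No paired analysis was possible because each group has 1 array. Of 256 single-gene values past 2-fold recomputed under the alternatives, 227 kept their side and direction and 27 fell under 2-fold. The other 2 fell to near 0 with a change of sign. The difference of the DSS effect of Dnajb5 was -0.03 without probe sets that can match several genes. The DSS difference of Hsp90b1 in KO was -0.08 against the untreated WT array. With that baseline, 744 of all genes passed 2-fold upward in the DSS KO array. After quantile normalization the member medians were 0.19 for DSS in KO, 0.07 for KO minus WT without DSS and -0.13 for the difference of the DSS effect; 2 members were higher in both genotypes, and 1 gene of all passed limma's adjusted p for DSS. limma without the covariate also called 1 gene. Without a filter the all-gene median for DSS in KO was -0.05 and the CCT median in WT 0.80. With a 75th percentile filter the member median for DSS in KO was 0.425 and 325 of all genes were higher in KO with DSS. With the mean over probe sets, 5 members were higher and 1 lower with DSS in WT, 6 (and 860 of all genes) higher in KO, 2 higher in both, 1 higher in KO with DSS and 4 with a higher DSS effect in KO, and the CCT medians were 0.78 in WT and 0.775 in KO. At 1.5-fold, 24 were higher and 7 lower with DSS in WT, 23 higher in KO and 14 in both; KO minus WT gave 3 higher and 13 lower without DSS and 7 higher and 2 lower with it, and the DSS effect was higher in KO for 16 and lower for 5. The cause was not tested. Precision is limited by 1 array per group.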

Other observations

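Other genes bound or induced by heat shock factor 1 were compared with the chaperones. Of 14 that passed the filter, 9 lay higher on both DSS arrays than on both untreated ones (26.4% of all genes), 5 passed 2-fold upward with DSS in each genotype (5.82% of all genes in WT and 10.7% in KO), and 2 passed it downward in WT (4.94%). Mt2, a metallothionein that binds zinc and copper, was the 1 gene at least 2-fold higher in both genotypes, by 2.34 and 2.26. The list shares 5 of its 14 genes (Ahsa1, Bag3, Chordc1, Fkbp4 and Stip1) with the 20 co-chaperones, and Atf3 with the immediate-early genes.

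Immediate-early genes, which respond to handling of tissue as well as to growth signals, passed 2-fold upward with DSS in 2 cases of 12 for WT (5.82% of all genes) and in 7 for KO (10.7%). Egr1 differed by 1.15 (WT) and 3.73 (KO), and Ier3 by 1.5 and 2.26. Their part in the differences of Hspa1a, Hspa1b, Hspb1 and Hspb8 was not tested.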
